A study of Mus musculus with 23 samples.

Results

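The transcripts of 10 genes for chromatin enzymes that shape gene silencing were followed: the Polycomb repressive complex 2 (PRC2) genes Ezh1, Ezh2, Eed and Suz12, the histone demethylase genes Kdm6a and Kdm6b, the class I histone deacetylase genes Hdac1, Hdac2 and Hdac3, and the maintenance DNA methyltransferase gene Dnmt1. They were taken by symbol, and no measured value enters the rule, although the genes were chosen with earlier results of these data known. All 10 were found among the 43068 genes of the crush libraries and among the 22880 genes of the libraries from inducible knockouts (iKO), and all 10 passed the filter on low counts in each of the 6 comparisons. The libraries held total RNA of mouse sciatic nerve (SN). In the crush experiment, wild-type C57BL/6J males of 2 months were sampled 3 days post crush (3 dpc, n = 4), with contralateral nerves (n = 4) and nerves of uncrushed surgery controls (n = 3), and the injured piece was the stretch from 1 to 8 mm distal to the crush. In the iKO experiment, mice of either sex carried flox/flox alleles of Dicer1 or Dgcr8, 2 genes needed to make microRNAs (miRNAs). The mutants carried a tamoxifen-inducible Cre transgene (CreERT2 -/+) and their controls did not (CreERT2 -/-), on a C57bl6 background (n = 3 each for Dicer iKO, Dicer control, Dgcr8 iKO and Dgcr8 control). Mutants and controls alike received tamoxifen on 5 consecutive days at 8 to 10 weeks of age and were sampled 3 months later. The transgene is active in Schwann cells (SCs) that make myelin, so that these are targeted while the other cells of the nerve keep both alleles. Only mutants with visible nerve defects were kept by the study.

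PRC2 places methyl groups on lysine 27 of histone H3 and thereby keeps genes silent. Ezh1 and Ezh2 are its alternative catalytic subunits, of which Ezh2 is typical of dividing cells and Ezh1 of resting cells, and Eed and Suz12 are core subunits that either enzyme needs. Kdm6a (UTX) and Kdm6b (JMJD3) remove the same mark. Hdac1 and Hdac2 take acetyl groups off histones within the NuRD, Sin3 and CoREST corepressors, and Hdac3 does so within NCoR and SMRT. Dnmt1 copies DNA methylation onto the new strand after replication. In SCs, PRC2 is known to hold injury genes silent, Kdm6b to oppose it after nerve damage, and Hdac1 and Hdac2 to be needed for myelination.

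Total counts per library ranged from 6617716 to 12806066 in the crush experiment and from 5594859 to 10143244 in the iKO experiment. A level of 3 counts, taken as the detection limit, corresponded to 0.234 to 0.453 and to 0.296 to 0.536 CPM, a count normalised to the library's total, a limit that covers counting error only. Each of the 10 genes lay well above it in every library. All 8 genes of myelinating SCs were above 0 in every library. This does not identify the tissue by itself, since all 10 macrophage and all 6 endothelial genes were above 0 as well. In whole nerve, fewer cells of a type and less RNA per cell cannot be told apart.

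The first question was how the 10 genes differed between injured and control nerves. At 3 dpc, 8 of them were higher and 1 was lower than in uncrushed nerves, and 7 were higher and 1 was lower than in contralateral nerves (edgeR's quasi-likelihood test, adjusted p of at most 0.05). Ezh1 was the gene that fell, whereas the other PRC2 genes, Hdac1, Hdac2, Hdac3 and Dnmt1 rose against both controls. The injury moved most of the transcriptome: against uncrushed nerves 33.8% of 17433 genes tested were called higher and 33.4% lower, and against contralateral nerves 33.5% of 16667 were called higher and 32.9% lower. Over the 10 members the log2 fold changes had a median of 0.85 and 0.59, beside -0.03 and -0.06 for all genes tested. Ranges of crushed and uncrushed nerves did not overlap for 7 members higher and 1 lower, beside 29.7% and 35.9% of all genes, and those of crushed and contralateral nerves for 7 higher and 1 lower, beside 30.3% and 29.2%. The share of the 10 called higher thus lay above that of all genes in both comparisons and the share called lower below it. Both comparisons use the same 4 crushed nerves, so they are not independent of each other.

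**Figure D1:**
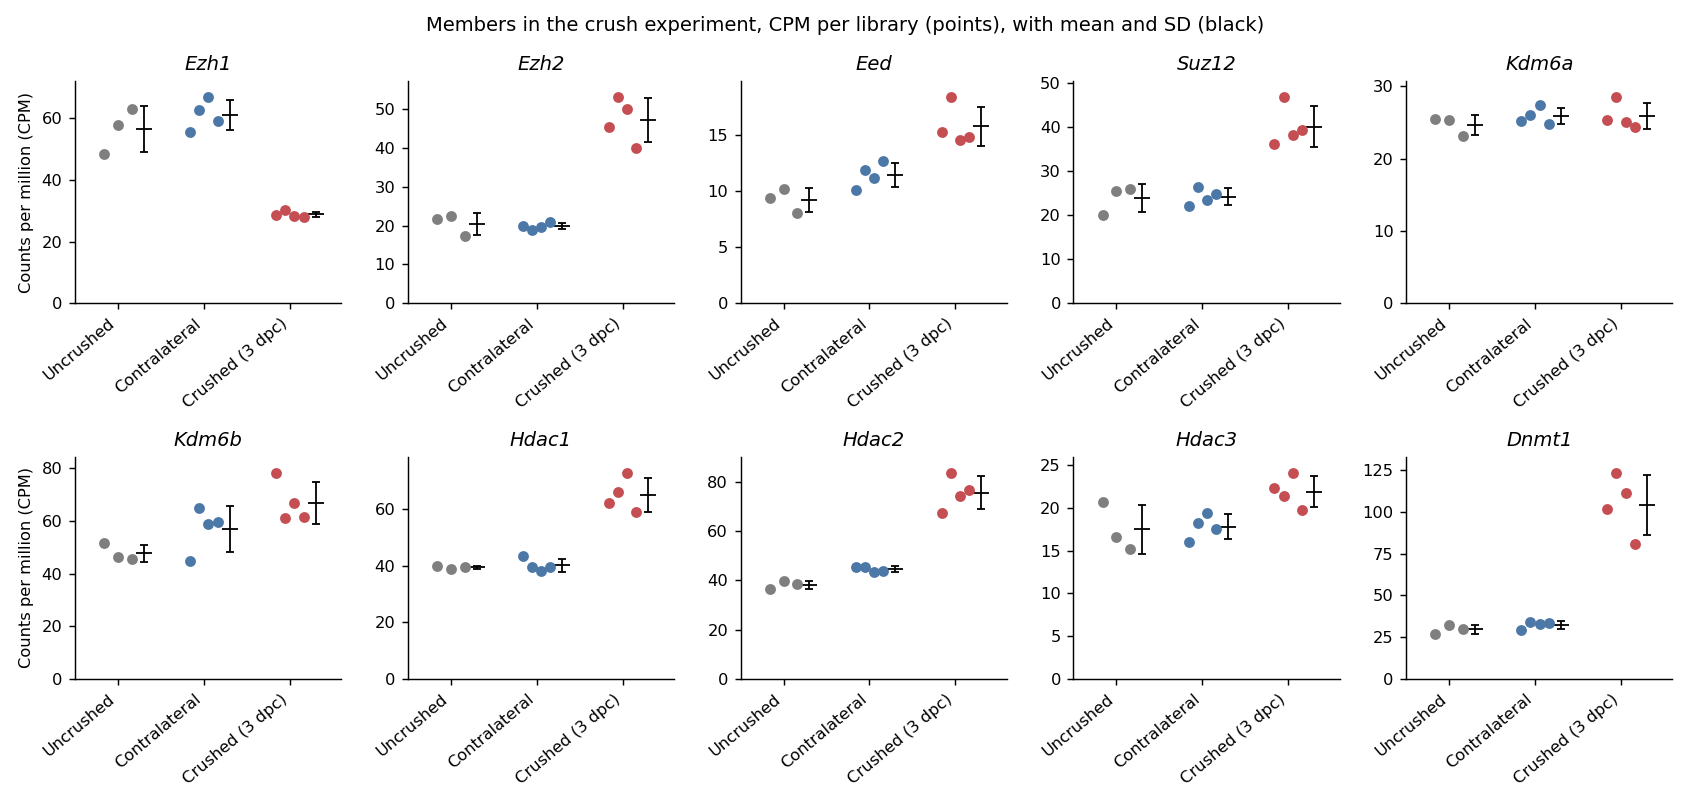
Each panel shows 1 gene in the crush experiment, with CPM on a linear axis from 0, points for the 3 uncrushed, 4 contralateral and 4 crushed libraries, and black bars for the mean and SD. Ezh1 is lower in all 4 crushed libraries than in every control library, Ezh2, Eed, Suz12, Hdac1, Hdac2 and Dnmt1 are higher in all 4, and Kdm6a, at 23.1 to 28.5 CPM in all 11 libraries, shows no separation.

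Ezh1 and Ezh2, the alternative catalytic subunits of PRC2, moved in opposite directions. Ezh1 (ENSMUSG00000006920, chromosome 11, 101191115 to 101226463, minus strand, GRCm38) was at 48.5, 58.0 and 63.1 CPM in uncrushed nerves, at 55.6, 62.8, 66.8 and 59.1 CPM in contralateral nerves and at 28.8, 30.2, 28.2 and 28.1 CPM at 3 dpc. The crushed nerves lay close together and below every control nerve. The log2 fold change was -0.86 ± 0.10 (SE, adjusted p = 8.68e-06) against uncrushed and -1.07 ± 0.08 (adjusted p = 3.26e-08) against contralateral nerves by edgeR's quasi-likelihood test. Ezh2 (ENSMUSG00000029687, chromosome 6, 47530139 to 47595341, minus strand) was at 21.6, 22.5 and 17.3 CPM in uncrushed nerves, at 19.9, 18.9, 19.7 and 21.0 CPM in contralateral nerves and at 45.3, 53.0, 50.1 and 39.95 CPM at 3 dpc. The lowest crushed nerve exceeded the highest control nerve. Its log2 fold change was 1.29 ± 0.12 (adjusted p = 2.17e-06) and 1.26 ± 0.09 (adjusted p = 1.01e-08).

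Levels of the pair are given as FPKM, the deposited unit scaled to transcript length and library size. It was summed over all transcripts of a gene, and a short transcript adds more FPKM per count. Ezh2-206, of 512 nt and not protein-coding, held 9.55% of the Ezh2 counts in uncrushed nerves on average. The Ezh2 share therefore rests in part on such transcripts. Ezh2 made up 51.3% ± 4.0 (SD, n = 3) of the summed FPKM of Ezh1 and Ezh2 in uncrushed nerves and 51.5% ± 2.7 (n = 4) in contralateral nerves. At 3 dpc its share was 78.6, 80.7, 81.5 and 79.4%, above the 46.8 to 54.6% of all 7 control nerves. By CPM, which does not correct for length, the mean shares were 26.8%, 24.6% and 61.9%, so the height of the share depends on the unit and its rise does not.

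Eed and Suz12, the core subunits, rose less than Ezh2. Eed (ENSMUSG00000030619, chromosome 7, 89954654 to 89980983, minus strand) was the scarcest of the 10 by CPM, with 8.03 to 10.1 in uncrushed, 10.1 to 12.6 in contralateral and 14.6 to 18.3 in crushed nerves. Its log2 fold change was 0.87 ± 0.14 (adjusted p = 0.000144) against uncrushed and 0.48 ± 0.11 (adjusted p = 0.0017) against contralateral nerves. With counts of protein-coding transcripts alone, an alternative added after seeing the data, the second was 0.26 ± 0.13 (adjusted p = 0.0905) and no longer passed. A gene on the opposite strand of Eed, E230029C05Rik, was at 1.22 to 4.79 CPM, and whether the counting used strand is not given in the sources used here. Suz12 (ENSMUSG00000017548, chromosome 11, 79993106 to 80034123, plus strand) was at 20.1 to 26.0 CPM in uncrushed, 22.1 to 26.5 in contralateral and 36.2 to 46.8 in crushed nerves. It rose by 0.87 ± 0.12 (adjusted p = 4.07e-05) and 0.74 ± 0.10 (adjusted p = 1.01e-05) on the log2 scale, with no overlap between crushed and control nerves.

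The demethylase genes behaved less uniformly. Kdm6b (ENSMUSG00000018476, chromosome 11, 69398508 to 69413675, minus strand) was at 51.5, 46.2 and 45.6 CPM in uncrushed nerves, at 44.6, 65.0, 59.0 and 59.8 CPM in contralateral nerves and at 78.2, 61.0, 66.7 and 61.3 CPM at 3 dpc. All 4 crushed nerves were above the uncrushed ones, but 1 contralateral nerve lay within their range. Kdm6b stood at a log2 fold change of 0.59 ± 0.12 (adjusted p = 0.00075) against uncrushed and 0.24 ± 0.12 (adjusted p = 0.0875) against contralateral nerves, and the second passed without contralateral replicate 2 (0.34, adjusted p = 0.0239). Kdm6a (ENSMUSG00000037369, chromosome X, 18162575 to 18279936, plus strand) was at 23.1 to 25.5, 24.8 to 27.4 and 24.4 to 28.5 CPM in the uncrushed, contralateral and crushed nerves. The groups overlapped, and the log2 fold change was 0.17 ± 0.10 (adjusted p = 0.153) and 0.01 ± 0.08 (adjusted p = 0.89).

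The gene sum of Kdm6a covers transcripts of different kinds. A transcript with a retained intron, Kdm6a-203, held 44.1% of the Kdm6a counts in uncrushed, 45.2% in contralateral and 30.6% in crushed nerves on average. Protein-coding transcripts were at 11.7 to 13.2 CPM in uncrushed, 11.8 to 14.8 CPM in contralateral and 15.7 to 19.4 CPM in crushed nerves, with no overlap between crushed and control nerves. With these transcripts alone, the log2 fold change of Kdm6a was 0.35 ± 0.12 (adjusted p = 0.0238) against uncrushed and 0.34 ± 0.11 (adjusted p = 0.0139) against contralateral nerves, so its call depends on which transcripts are summed. For Ezh2 the coding share was 62.5% ± 9.0 (SD, n = 3), 57.3% ± 3.1 (n = 4) and 75.8% ± 4.3 (n = 4), and its log2 fold change from coding transcripts was 1.37 and 1.58. The split of reads between transcripts of 1 gene is an estimate of the authors' software.

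Hdac1, Hdac2 and Hdac3 all rose, in differing degree. Hdac2 (ENSMUSG00000019777, chromosome 10, 36974544 to 37001889, plus strand) was at 36.4, 39.6 and 38.5 CPM in uncrushed nerves, at 45.6, 45.5, 43.2 and 43.8 CPM in contralateral nerves and at 67.3, 83.5, 74.4 and 76.8 CPM at 3 dpc. The 3 groups did not overlap, the contralateral nerves lying just above the uncrushed ones. Hdac2 rose by 1.09 ± 0.10 (adjusted p = 1.16e-06) on the log2 scale against uncrushed and by 0.78 ± 0.08 (adjusted p = 8.11e-07) against contralateral nerves. Hdac1 (ENSMUSG00000028800, chromosome 4, 129516104 to 129542713, minus strand) was at 38.1 to 43.5 CPM in the 7 control nerves and 59.0 to 72.7 CPM at 3 dpc, and rose by 0.82 ± 0.09 (adjusted p = 8.26e-06) and by 0.71 ± 0.08 (adjusted p = 2.02e-06) on the log2 scale. Its share of the summed FPKM of Hdac1 and Hdac2 was 51.6% ± 1.6, 47.1% ± 1.9 and 45.8% ± 2.7 (SD) in the uncrushed, contralateral and crushed nerves. Hdac3 (ENSMUSG00000024454, chromosome 18, 37935844 to 37955016, minus strand) rose least, from 15.2 to 20.7 and 16.04 to 19.5 CPM in the controls to 19.8 to 24.1 CPM. The crushed and uncrushed ranges overlapped, and it rose by 0.41 ± 0.13 (adjusted p = 0.0143) and by 0.31 ± 0.10 (adjusted p = 0.00973). The first was lost with a filter of 10 counts in every sample (0.29, adjusted p = 0.058) and the second without crushed replicate 3 (0.24, adjusted p = 0.0688).

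Dnmt1 (ENSMUSG00000004099, chromosome 9, 20907209 to 20959888, minus strand) had the highest log2 fold change of the 10. It was at 27.0, 32.0 and 29.7 CPM in uncrushed nerves, at 29.1, 34.1, 32.9 and 33.3 CPM in contralateral nerves and at 102, 123, 112 and 80.8 CPM at 3 dpc. Every crushed nerve stood far above the controls, which lay close together. It rose by 1.92 ± 0.13 (adjusted p = 1.03e-07) on the log2 scale against uncrushed and by 1.70 ± 0.11 (adjusted p = 3.80e-09) against contralateral nerves. With a fold change of at least 2 required as well, Dnmt1, Ezh2 and Hdac2 passed against uncrushed nerves (15.3% of all genes higher, 21.1% lower), and Dnmt1, Ezh2 and Ezh1 against contralateral nerves (14.6% higher, 13.6% lower).

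Several of these genes are known to be transcribed before DNA synthesis under E2F factors, so their promoters were searched for E2F letters. The windows were the 250 bases before to 50 bases after each RefSeq start (GRCm38.p6), and both strands were searched. The letters searched were TTCCCGC. A second form of this word has the letters TTCGCGC. Another form of this word has the letters TTGCCGC. The last form of this word has the letters TTGGCGC. The table held windows for 7 of the 10 genes, not for Hdac1, Hdac3 or Kdm6b. Of their 9 windows 3 held a match, those of Ezh2, Suz12 and Dnmt1, beside 9.57% of 32851 windows of all genes. The matches are printed in capitals within short stretches, 5′ to 3′ on the strand of the gene. A match describes letters only and does not show that a factor binds.
Ezh2, chr6:47595009-47595037, minus strand: ggttgctgcgtTTGGCGCtcggtccggtc
Dnmt1, chr9:20952574-20952600, minus strand: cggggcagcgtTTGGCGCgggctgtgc
Dnmt1, chr9:20952764-20952792, minus strand: gcaagatgccaGCGCGAAcagctccagcc
Dnmt1, chr9:20952825-20952853, minus strand: ggtttccgcgcGCGCGAAaaagccggggt
Suz12, chr11:79992877-79992905, plus strand: gacccctcattTTCCCGCgaattcagttc

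Markers of cell types and of division moved along with the 10 genes. The summed level of 10 proliferation genes was 62.5 to 79.6 CPM in the control nerves and 934 to 1378 CPM at 3 dpc, and all 10 rose against both controls. The 10 macrophage genes summed to 116 to 221 CPM in control nerves and 827 to 1844 CPM at 3 dpc, with all 10 higher, and the 8 genes of myelinating SCs summed to 39643 to 54267 and 1082 to 1699 CPM, with all 8 lower. The 6 endothelial genes summed to 230 to 277.0 CPM over all 11 nerves, although 3 of them rose and 2 fell against uncrushed and 3 rose and 3 fell against contralateral nerves. The 6 fibroblast genes summed to 3714 to 5194 CPM in controls and 2785 to 3428 CPM at 3 dpc, with 4 of 6 lower in both comparisons, and the 6 neutrophil genes were at 5.49 to 14.5 CPM in controls and 20.0 to 35.4 CPM at 3 dpc. Adipocyte and skeletal muscle genes reached at most 9.86 CPM in sum. The part of these shifts in the changes of the chromatin genes was not tested.

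Genes whose levels ran most closely with a member over the 11 crush libraries are given as a description, since all share the contrast of crushed with control nerves. By Pearson's r of log2(CPM + 1) among 16113 genes, these were Pfkm (0.994), Enpp4 and Tcf7l2 for Ezh1, and Colgalt1 (0.995), Stk38 and Fen1 for Ezh2. For Hdac2 they were Zfp36l2 (0.996), Xrn2 and Ccdc88a, and for Dnmt1 they were Nono (0.997), Eif3a and Msn.

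Between contralateral and uncrushed nerves, 0 of the 10 genes passed edgeR's quasi-likelihood test, as did 0% of 17722 genes. At an unadjusted p under 0.05 there were 2, Eed and Hdac2, beside 17.9% of all genes, and DESeq2 called 0 of the 10. Hdac2 alone of the 10 was higher in all 4 contralateral nerves than in the 3 uncrushed ones, beside 6.75% of all genes higher and 8.84% lower without overlap, with a log2 fold change of 0.22 ± 0.08 (adjusted p = 0.191 by edgeR). Eed stood at 0.30 ± 0.14 (adjusted p = 0.28 by edgeR). The other 8 log2 fold changes ran from -0.06 to 0.25.

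The second question was how the same genes stood in nerves in whose myelinating SCs Dicer1 or Dgcr8 was targeted. The targeted genes came first. Dicer1 was at 88.0, 87.4 and 90.5 CPM in Dicer control nerves and at 81.3, 82.1 and 81.9 CPM in Dicer iKO nerves, a log2 fold change of -0.11 ± 0.08 (adjusted p = 0.357). Dgcr8 was at 38.4, 35.4 and 41.8 CPM in Dgcr8 control nerves and at 39.4, 54.0 and 41.8 CPM in Dgcr8 iKO nerves (0.22 ± 0.15, adjusted p = 0.233). The gene sums take in all exons and all cells of the nerve, so they do not check the deletion. Of the myelinating SC genes, 1 of 8 was called lower in Dicer iKO and 6 of 8 in Dgcr8 iKO.

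Dnmt1 rose and Ezh1 fell in both mutants, while the core PRC2 genes Ezh2, Eed and Suz12 passed in neither. In Dicer iKO, 2 of the 10 genes were called higher, Dnmt1 and Kdm6b, and 1 lower, Ezh1, beside 12.3% and 8.88% of 13045 genes. In Dgcr8 iKO, 2 were called higher, Dnmt1 and Hdac2, and again Ezh1 lower, beside 23.9% and 20.6% of 13252 genes, so that the share of members called lay near the background in both mutants. Their log2 fold changes had a median of 0.02 in each mutant, beside -0.01 for all genes in each. None reached a fold change of 2, which 7.37% of genes higher and 1.64% lower did in Dicer iKO, and 13.4% and 6.99% in Dgcr8 iKO. In Dicer iKO 3 members were higher without overlap (Dnmt1, Hdac2 and Kdm6b) and 2 lower (Ezh1 and Hdac1), beside 21.9% and 20% of all genes. In Dgcr8 iKO 3 were higher (Dnmt1, Ezh2 and Hdac2) and 2 lower (Ezh1 and Eed), beside 28.9% and 27% of all genes.

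**Figure D2:**
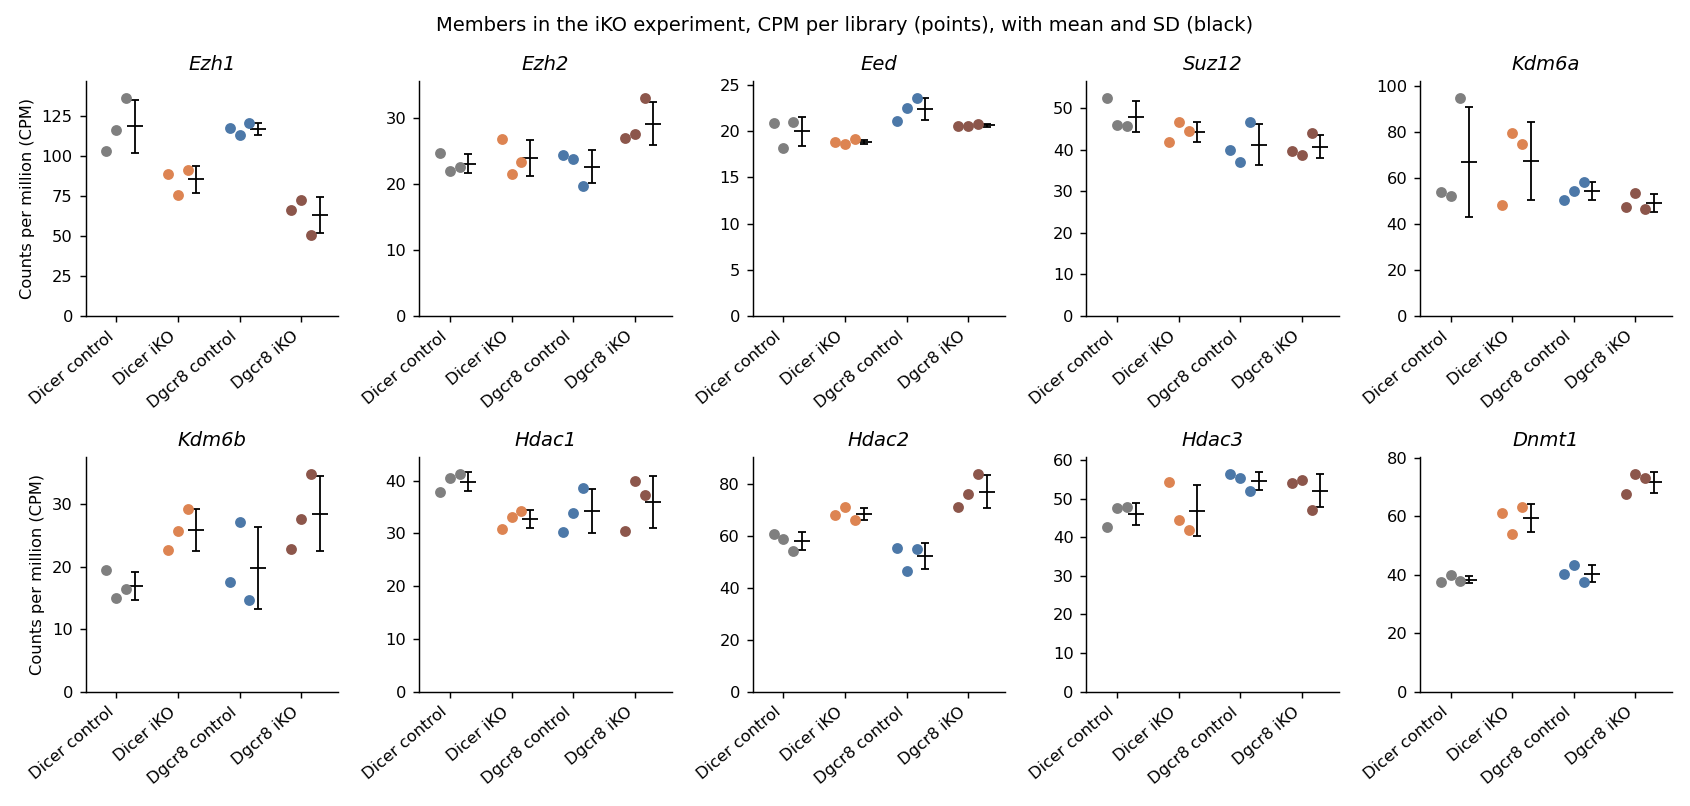
Each panel shows 1 gene in the iKO experiment, with CPM on a linear axis from 0, points for the 3 libraries of each group, and black bars for the mean and SD. Dnmt1 is higher and Ezh1 lower in all 3 libraries of each mutant than in its controls, while Kdm6a splits within both Dicer groups.

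Ezh1 was at 103, 116 and 136 CPM in Dicer control nerves and at 88.6, 75.9 and 91.6 CPM in Dicer iKO nerves. It was at 117, 113 and 121 CPM in Dgcr8 control nerves and at 66.5, 72.3 and 50.9 CPM in Dgcr8 iKO nerves. Mutant and control nerves did not overlap in either case. By edgeR's quasi-likelihood test the log2 fold change was -0.47 ± 0.13 (adjusted p = 0.0395) in Dicer iKO and -0.89 ± 0.14 (adjusted p = 0.00047) in Dgcr8 iKO. The difference between the mutants, tested as an interaction over the 12 libraries, was -0.41 ± 0.20 (adjusted p = 0.385). The Dicer result was lost in 5 of 6 repeats that left out 1 library (adjusted p = 0.0648 to 0.164), the exception being Dicer control replicate 1.

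Ezh2 was at 24.7, 21.9 and 22.6 CPM in Dicer control and 26.9, 21.6 and 23.4 CPM in Dicer iKO nerves, and at 24.4, 23.8 and 19.8 CPM in Dgcr8 control and 27.0, 27.6 and 33.0 CPM in Dgcr8 iKO nerves. The Dicer groups overlapped, while the Dgcr8 iKO nerves all lay above their controls. The log2 fold change was 0.06 ± 0.13 (adjusted p = 0.773) and 0.36 ± 0.15 (adjusted p = 0.0623), and the latter passed with all 4 groups in 1 fit (0.37, adjusted p = 0.0381). The share of Ezh2 in the summed FPKM of Ezh1 and Ezh2 was 29.6% ± 6.2 in Dicer control and 37.3% ± 1.2 in Dicer iKO, and 30.8% ± 2.4 in Dgcr8 control and 48.9% ± 6.3 in Dgcr8 iKO (SD, n = 3 each). In Dgcr8 iKO the 43.9 to 55.9% of the mutants lay above the 28.4 to 33.3% of the controls, whereas in Dicer iKO the ranges touched at 36.3%. By CPM the share was separate in both mutants, at 14.2 to 19.3% in Dicer control and 20.3 to 23.3% in Dicer iKO, so that the overlap in the Dicer groups depends on the unit. The crush and iKO libraries carry different kits in their labels and list different transcripts, so shares are not compared between the experiments. Eed and Suz12 changed by -0.08 ± 0.12 and -0.11 ± 0.10 in Dicer iKO and by -0.12 ± 0.13 and -0.02 ± 0.13 in Dgcr8 iKO on the log2 scale (adjusted p = 0.475 to 0.901).

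**Figure D3:**
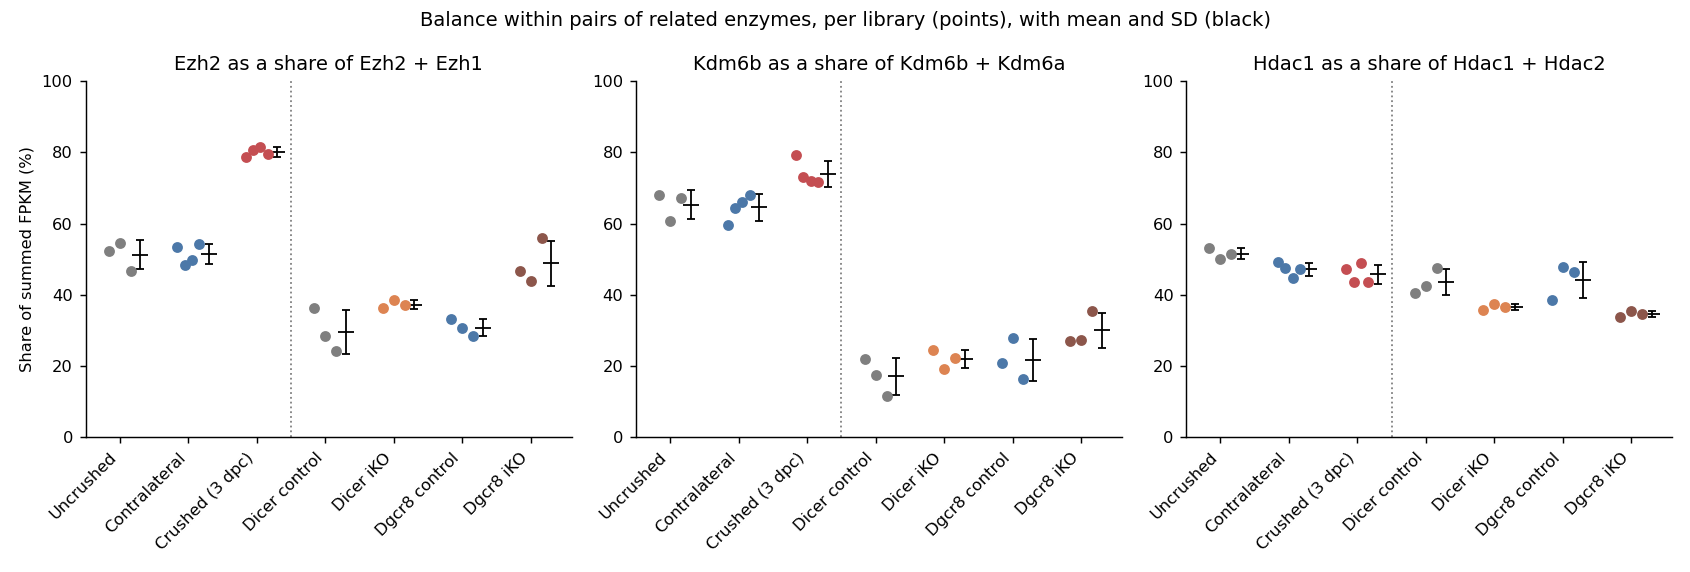
Share of Ezh2, Kdm6b and Hdac1 in the summed FPKM of each pair of related enzymes, in percent, with points for libraries, black bars for the mean and SD, and a dotted line between the crush and the iKO experiment, which are not compared. The Ezh2 share stands at 78.6 to 81.5% in the 4 crushed nerves and at 46.8 to 54.6% in their 7 controls.

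Ezh2 is a textbook target of miR-101 and miR-26a, and the miRNAs let-7f, miR-10a, miR-30a and miR-181a are those that the study assayed. These 6 were therefore matched to the 3′ untranslated regions (UTRs) of the 10 genes. They are printed from RefSeq (GRCm38.p6) with the seed, bases 2 to 8, in capitals, and no 2 of them share a seed.
mmu-let-7f-5p: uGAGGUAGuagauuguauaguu
mmu-miR-10a-5p: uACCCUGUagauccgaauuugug
mmu-miR-30a-5p: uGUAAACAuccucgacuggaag
mmu-miR-181a-5p: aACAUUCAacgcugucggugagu
mmu-miR-26a-5p: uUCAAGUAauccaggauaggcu
mmu-miR-101a-3p: uACAGUACugugauaacugaa

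Among the 10 genes, the UTR of Ezh2 and that of Eed held the most matches to these seeds, 4 each, whereas those of Ezh1, Kdm6a, Hdac1, Hdac2 and Dnmt1 held 0. The choice of miR-101a and miR-26a, made because they are known to target Ezh2, favours Ezh2 in this count. Over 13850 expressed genes with a median UTR of 1049 nt, a match to let-7f was found in 9.69% of UTRs, to miR-26a in 10.6% and to miR-101a in 10.7%. The UTR of Ezh2 (transcript Ezh2-201, 402 nt, GENCODE M21) is short, and its sites are printed 5′ to 3′ on the minus strand with the letters that pair with the seed in capitals.
let-7f, chr6:47530527-47530540: catctaCTACCTCt
miR-101a, chr6:47530475-47530497: cttcaggaaccttgaGTACTGTg
miR-101a, chr6:47530420-47530442: ttctgaatttgcaaaGTACTGTa
miR-26a, chr6:47530286-47530308: aatttgaataaagaaTACTTGAa

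The remaining matches were those of miR-101a in Kdm6b and Eed, of miR-26a in Suz12, of miR-30a in Hdac3 and, at a pair of sites, in Eed, and of miR-181a in Eed. The shares for the other seeds were 13.4% for miR-10a, 15.4% for miR-30a and 17.8% for miR-181a over all genes. The sites outside Ezh2 that match miR-101a or miR-26a are printed in the same way.
Kdm6b, miR-101a, chr11:69398935-69398957, minus strand: gggtgagcgactcctGTACTGTa
Suz12, miR-26a, chr11:80032856-80032878, plus strand: cccagtttaggttttTACTTGAa
Eed, miR-101a, chr7:89954778-89954800, minus strand: ttgtttacattctttGTACTGTc

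Set beside these sites, the log2 fold changes in Dicer and Dgcr8 iKO were 0.06 and 0.36 for Ezh2, -0.08 and -0.12 for Eed and -0.11 and -0.02 for Suz12, none of which passed, and 0.61 and 0.53 for Kdm6b, of which the first passed. Dnmt1, called higher in both mutants, held no match in its UTR of 312 nt. A match describes letters and does not show repression. Only these 6 miRNAs were searched, and the part of the sites in the changes was not tested. For Ezh2 a match concerns only transcripts that carry this UTR. The coding transcript Ezh2-202 was passed over, since only UTRs of at least 30 nt were searched. It held 42.3% ± 10.5 of the Ezh2 counts in Dicer control and 46.0% ± 1.9 in Dgcr8 control nerves (SD, n = 3 each). Which of the remaining transcripts carry the UTR of Ezh2-201 was not examined. Ezh2-201 held 41.6% ± 7.4 of the Ezh2 counts in Dicer control and 16.5% ± 9.1 in Dgcr8 control nerves (SD, n = 3 each). In the mutants its share was 50.2% ± 15.98 in Dicer iKO and 43.9% ± 14.5 in Dgcr8 iKO, where the 32.1 to 60.1% of the mutants lay above the 6.08 to 22.8% of their controls.

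Kdm6b was the scarcest of the 10 by FPKM in the iKO experiment. It was at 19.4, 14.9 and 16.5 CPM in Dicer control and 22.6, 25.7 and 29.2 CPM in Dicer iKO nerves, and at 17.6, 27.1 and 14.6 CPM in Dgcr8 control and 22.9, 27.6 and 34.8 CPM in Dgcr8 iKO nerves. The Dicer groups were separate, whereas 1 Dgcr8 control lay among the mutants. Its log2 fold change was 0.61 ± 0.16 (adjusted p = 0.0296) in Dicer iKO and 0.53 ± 0.23 (adjusted p = 0.0769) in Dgcr8 iKO. The first was lost in 4 of 6 repeats without 1 library (without Dicer iKO replicate 2 or 3 or Dicer control replicate 2 or 3, adjusted p = 0.0503 to 0.112), and the second passed without Dgcr8 control replicate 2 (0.81, adjusted p = 0.0133).

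Kdm6a, which lies on the X chromosome and is known to escape X inactivation, split the Dicer libraries. It was at 53.9, 52.4 and 94.6 CPM in Dicer control and at 48.2, 79.7 and 74.7 CPM in Dicer iKO nerves. The 3 libraries from 74.7 CPM upwards were those in which the Y-linked gene Ddx3y had 0 counts, while the other 9 iKO libraries had Ddx3y counts and Kdm6a at 46.7 to 58.2 CPM. Of the other Y-linked genes, Eif2s3y and Uty fell to 0 and 3.11 CPM in Dicer control and to 0 and 1.55 CPM in Dicer iKO. Kdm5d did not, with at least 61.1 and 52.6 CPM in these groups. The study used mice of either sex. By Ddx3y, sex appears uneven between the Dicer groups, with 1 library at 0 among the controls and 2 among the mutants. Kdm6a changed by 0.01 ± 0.27 (adjusted p = 0.976) in Dicer iKO, a wide error, and by -0.15 ± 0.12 (adjusted p = 0.345) in Dgcr8 iKO. Without the 3 libraries, a fit that leaves 1 Dicer iKO against 2 controls and takes the spread from all 9, 0 of the 10 genes passed in Dicer iKO. Dnmt1 kept its size there (0.65, adjusted p = 0.0523), whereas Ezh1 (-0.32, adjusted p = 0.457) and Kdm6b (0.39, adjusted p = 0.605) shrank.

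Among the deacetylases, Hdac2 was at 60.8, 58.8 and 54.1 CPM in Dicer control and 68.0, 71.1 and 66.2 CPM in Dicer iKO nerves, and at 55.4, 46.7 and 55.0 CPM in Dgcr8 control and 71.2, 76.0 and 83.8 CPM in Dgcr8 iKO nerves. Both mutants lay above their controls without overlap. The log2 fold change passed in Dgcr8 iKO (0.55 ± 0.13, adjusted p = 0.00422) and not in Dicer iKO (0.24 ± 0.09, adjusted p = 0.102), and the difference between the mutants was 0.31 ± 0.15 (unadjusted p = 0.0497, adjusted p = 0.363 by edgeR). Hdac1 was at 37.8, 40.5 and 41.2 CPM in Dicer control and 30.7, 33.1 and 34.2 CPM in Dicer iKO nerves, all mutants being lower, with a log2 fold change of -0.28 ± 0.10 (adjusted p = 0.0873). In Dgcr8 iKO it was 0.07 ± 0.15, with overlapping groups. The share of Hdac1 in the summed FPKM of Hdac1 and Hdac2 was 40.5 to 47.5% in Dicer control and 35.8 to 37.4% in Dicer iKO, and 38.4 to 47.8% in Dgcr8 control and 33.7 to 35.4% in Dgcr8 iKO, separate in both. Hdac3 changed by 0.03 ± 0.13 and -0.07 ± 0.12.

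Dnmt1 was at 37.5, 39.8 and 37.8 CPM in Dicer control and 61.2, 54.0 and 63.1 CPM in Dicer iKO nerves. It was at 40.3, 43.5 and 37.5 CPM in Dgcr8 control and 67.7, 74.5 and 73.0 CPM in Dgcr8 iKO nerves. Both mutants stood clear of their controls. The log2 fold change was 0.63 ± 0.10 (adjusted p = 0.00673) in Dicer iKO and 0.83 ± 0.12 (adjusted p = 0.000207) in Dgcr8 iKO, and it passed with each library left out. As an interaction over the 12 iKO libraries, 0 of the 10 genes differed between the mutants by edgeR, beside 0.00738% of 13552 genes in each direction. At an unadjusted p under 0.05 there was 1, Hdac2, beside 13.7% of all genes, and DESeq2 called 0.

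**Figure D4:**
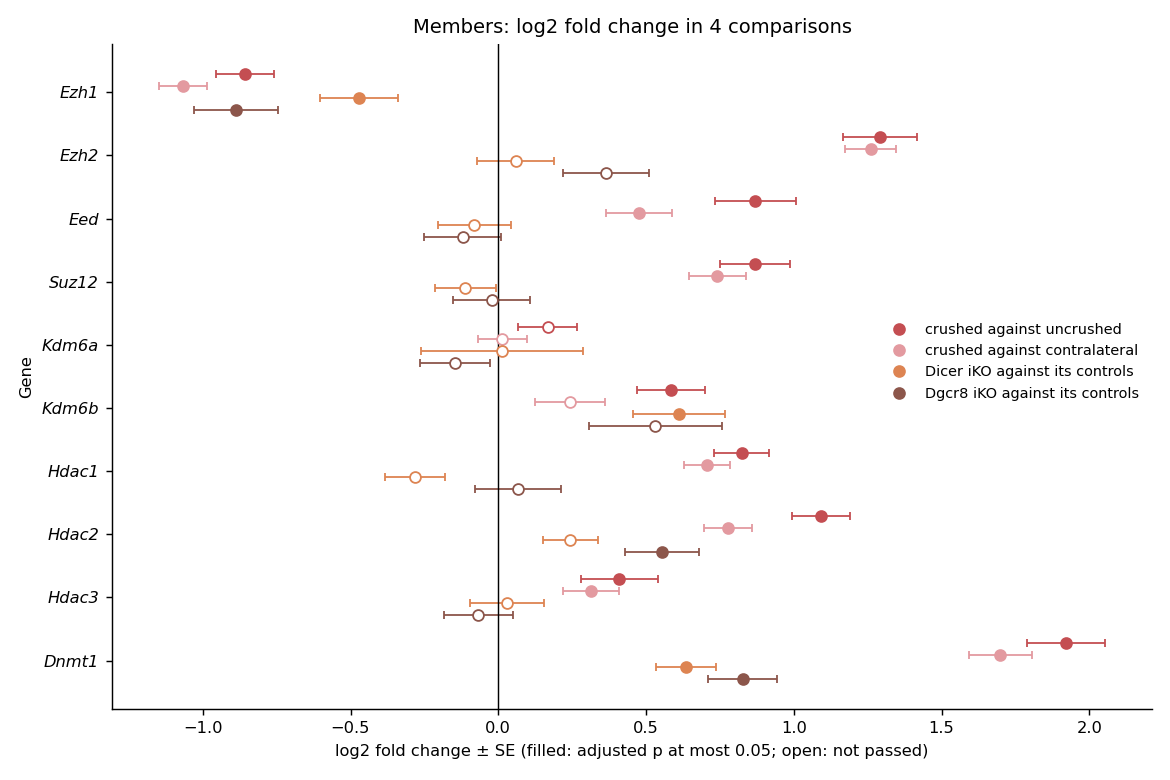
The log2 fold change of each gene in 4 comparisons with bars of 1 SE, filled where the adjusted p was at most 0.05 and open otherwise; both crush comparisons share the 4 crushed nerves. Ezh1 is below 0 and Dnmt1 above 0 in all 4, and Ezh2, Eed and Suz12 are filled in both crush comparisons and open in both iKO comparisons.

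As in the crush experiment, other markers moved with the mutants. Proliferation genes summed to 87.4 to 105 CPM in Dicer control and 181 to 227 CPM in Dicer iKO, and to 98.1 to 121 CPM in Dgcr8 control and 372 to 502 CPM in Dgcr8 iKO, with 7 and 9 of 10 called higher. Macrophage genes summed to 330 to 1078 and 3775 to 6694 CPM, and to 329 to 381 and 2483 to 5830 CPM, with 7 and 8 of 10 called higher. Genes of myelinating SCs summed to 26933 to 45155 and 21051 to 26338 CPM, and to 42403 to 44392 and 13709 to 27133 CPM. Fibroblast genes were at 4558 to 14769 and 19234 to 20487 CPM, and at 6065 to 8019 and 14502 to 17420 CPM, with 3 and 4 of 6 called higher. Endothelial genes summed to 354 to 410 and 249 to 295 CPM, and to 385 to 486 and 282 to 344 CPM, with 1 and 3 of 6 called lower. Neutrophil genes summed to at most 6.18 CPM in controls and 32.9 CPM in mutants with the defining gene Ly6g at 0 in all 12 libraries, and skeletal muscle genes to at most 17.97 CPM. Adipocyte genes summed to 2.59 to 41.8 CPM in Dicer control and 17.4 to 24.1 CPM in Dicer iKO, and to 0.544 to 2.71 CPM in Dgcr8 control and 14.98 to 41.5 CPM in Dgcr8 iKO, where the 1 gene that could be tested was called higher. The part of these cells in the changes of the chromatin genes was not tested.

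Levels per transcript length put the 10 genes in an order within each group. They include short transcripts that are not protein-coding, such as Eed-202 (454 nt, 24.7% of the Eed counts in uncrushed nerves on average). In uncrushed nerves Hdac1 led with 21.6 ± 1.3 FPKM (SD, n = 3), followed by Hdac2, Ezh2 and Ezh1, none of which was separate from its neighbour, and Ezh1 was separate from Kdm6b, the next below it. The order ended with Kdm6a and Dnmt1 at 5.2 ± 0.6 FPKM each. At 3 dpc Hdac2 (45.5 ± 2.5 FPKM, n = 4), Ezh2 (39.01 ± 2.89) and Hdac1 (38.6 ± 3.5) were highest without separation. Dnmt1 followed with 21.3 ± 3.0 FPKM, while Ezh1 stood ninth with 9.7 ± 0.4 FPKM, separate from Hdac3 above it and Kdm6a below it. In the iKO experiment Hdac2 and Ezh1 led the Dicer controls at 31.1 and 29.2 FPKM, and Ezh1, Hdac2 and Hdac3 led the Dgcr8 controls at 28.5, 28.4 and 28.3 FPKM without separation. Hdac2 alone led both mutants, at 39.2 and 45.05 FPKM, and was separate from Hdac3 below it. Ezh1 stood at 22.2 FPKM in Dicer iKO and 16.7 FPKM in Dgcr8 iKO.

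The third question was how the partners of these enzymes stood. Of 7 other PRC2 genes tested, 4 rose and 1 fell against uncrushed nerves, and 4 rose and 2 fell against contralateral nerves, beside 33.8% of all genes higher and 33.4% lower in the former and 33.5% and 32.9% in the latter. Phf19 and Jarid2, accessory subunits that help PRC2 find its targets, rose most, by 1.52 ± 0.31 and 1.29 ± 0.09 on the log2 scale against uncrushed nerves, while Phf1, another accessory subunit, fell by 0.94 ± 0.18. Phf19 was scarce, at 0.684 to 2.52 CPM in uncrushed and 4.65 to 6.35 CPM in crushed nerves. Against uncrushed nerves it passed the filter on low counts through the crushed nerves, so its value there is given as a description. In Dicer iKO 1 rose and 2 fell, beside 12.3% and 8.88% of all genes, and in Dgcr8 iKO 2 rose and 2 fell, beside 23.9% and 20.6%. Jarid2 rose in both mutants, by 0.38 ± 0.10 (adjusted p = 0.0344) and 0.57 ± 0.13 (adjusted p = 0.00478), and Phf19 by 1.57 ± 0.35 in Dgcr8 iKO.

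The genes of PRC1, a complex whose forms with CBX subunits bind the mark set by PRC2, moved in both directions. Of the 20 listed, which cover forms with and without CBX subunits, 6 rose and 7 fell against uncrushed nerves, a share close to the 33.8% higher and 33.4% lower of all genes. Against contralateral nerves 4 rose and 11 fell, beside 33.5% and 32.9%. The median change was -0.09 and -0.33 on the log2 scale beside the -0.03 and -0.06 of all genes. The CBX subunits, which read the mark, held the deepest falls. Cbx7 was at 30.3, 26.7 and 25.0 CPM in uncrushed and 29.1 to 38.8 CPM in contralateral nerves, and at 4.09, 3.34, 3.30 and 3.58 CPM at 3 dpc. Crushed and control nerves were far apart, and the log2 fold change was -2.83 ± 0.14 (adjusted p = 6.66e-09) and -3.22 ± 0.13 (adjusted p = 3.57e-11). Cbx7 also fell in Dicer iKO (-0.96 ± 0.17, adjusted p = 0.00873) and Dgcr8 iKO (-1.36 ± 0.21, adjusted p = 0.000443), and Cbx6 fell in all 4 comparisons, by 1.64 ± 0.08, 1.83 ± 0.09, 0.43 ± 0.11 and 0.48 ± 0.12. Over all 20 genes, 0 rose and 2 fell in Dicer iKO, and 1 rose and 6 fell in Dgcr8 iKO, beside 12.3% and 8.88%, and 23.9% and 20.6% of all genes. Under the alternatives 0 to 3 fell in Dicer iKO, so the Dicer calls of Cbx7 and Cbx6 were each lost under some alternative. Pcgf5 (1.43 ± 0.23) and Pcgf3 (0.78 ± 0.10) rose most against uncrushed nerves.

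Of the 8 other histone deacetylases, Hdac9 rose in both crush comparisons, by 1.91 ± 0.21 and 1.73 ± 0.19. Hdac11, the only class IV enzyme, fell in all 4 comparisons. It was at 6.15 to 9.65 CPM in control and 0.895 to 1.52 CPM in crushed nerves (-2.33 ± 0.25 and -2.70 ± 0.20), and fell by 0.75 ± 0.14 (adjusted p = 0.0115) in Dicer iKO and 1.33 ± 0.18 (adjusted p = 0.000153) in Dgcr8 iKO. In all, 1 rose and 2 fell against uncrushed, 1 rose and 3 fell against contralateral nerves, 0 rose and 1 fell in Dicer iKO, and 0 rose and 3 fell in Dgcr8 iKO. After crush these shares lay near or below those of all genes (33.8% higher and 33.4% lower against uncrushed, 33.5% and 32.9% against contralateral nerves), and in the mutants the background was 12.3% and 8.88%, and 23.9% and 20.6%. Of the 20 corepressor genes through which Hdac1, Hdac2 and Hdac3 act, 15 rose and 3 fell against uncrushed and 10 rose and 3 fell against contralateral nerves, beside the same background, with medians of 0.40 and 0.18 beside -0.03 and -0.06 for all genes. Chd3, a remodeller of NuRD, rose most, by 2.39 ± 0.11 and 2.25 ± 0.08, and also rose in Dgcr8 iKO (1.54 ± 0.18), while Rcor2 of CoREST fell by 0.86 ± 0.24 and 1.31 ± 0.21. Chd3 was at 32.9 to 54.1 CPM in Dgcr8 control and 117 to 149 CPM in Dgcr8 iKO. In the Dicer groups it did not pass, at 68.9 to 218 CPM in controls and 97.6 to 163 CPM in mutants. The Dgcr8 iKO level thus lay within the range of the Dicer controls. In Dicer iKO 1 of the 20 rose, Rcor1 (0.45 ± 0.10), and in Dgcr8 iKO 4 rose and 2 fell. The Dicer calls of Hdac11 and Rcor1 were each lost under some alternative.

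Uhrf1, which brings DNMT1 to newly copied DNA, was at 1.26 to 2.56 CPM in the 7 control nerves and at 44.4, 57.0, 51.8 and 39.9 CPM at 3 dpc. Its log2 fold change was 4.73 ± 0.18 (adjusted p = 8.10e-10) and 4.93 ± 0.16 (adjusted p = 3.75e-12). In Dicer iKO it was at 6.37 to 6.56 CPM beside 0.925 to 1.87 CPM in controls (2.31 ± 0.32). In Dgcr8 iKO it was at 15.5 to 22.98 CPM beside 0.816 to 1.298 CPM in controls (4.20 ± 0.27). In both mutants Uhrf1 passed the filter on low counts through the group where it is high. These values, and its place in the counts of this list for the mutants, are therefore given as a description. The de novo methyltransferase gene Dnmt3a rose in both mutants, by 1.14 ± 0.20 (adjusted p = 0.00847) and 1.76 ± 0.15 (adjusted p = 7.69e-06), and did not pass in either crush comparison (0.17 and 0.06). Tet1, which oxidises methylated DNA, fell by 2.18 ± 0.14 and 2.35 ± 0.12 after crush. Of the 7 genes of this list, 2 rose and 1 fell against uncrushed, 1 rose and 3 fell against contralateral nerves, 3 rose and 0 fell in Dicer iKO, and 3 rose and 1 fell in Dgcr8 iKO, beside 33.8% and 33.4%, 33.5% and 32.9%, 12.3% and 8.88%, and 23.9% and 20.6% of all genes higher and lower.

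**Figure D5:**
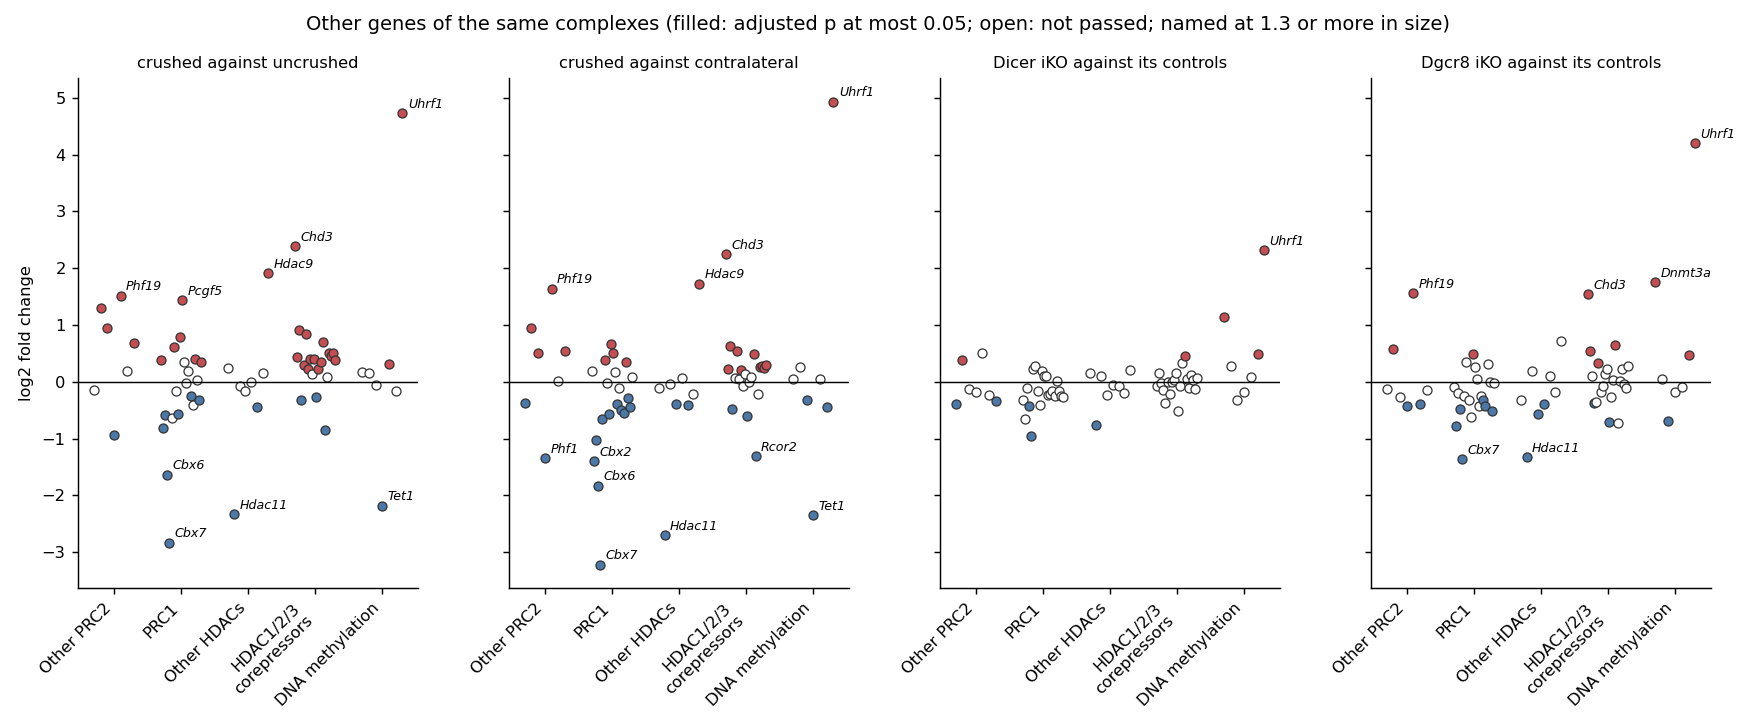
Each point is 1 gene of 5 lists (other PRC2, PRC1, other histone deacetylases, corepressors of HDAC1, 2 and 3, and DNA methylation), with its log2 fold change in 4 comparisons, filled where the adjusted p was at most 0.05 (red higher, blue lower) and open otherwise, and named where it passed and was at least 1.3 in size. Uhrf1, which passed the filter on low counts through the mutants in both iKO panels, is the highest point of each panel, and Cbx7 is the lowest of all 4.

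Of 7 genes known to be silenced by PRC2 in SCs, 6 could be tested after crush, 4 in Dicer iKO and 5 in Dgcr8 iKO. Some of them, such as Gdnf in the iKO experiment, are close to 0 in control nerves and passed the filter on low counts through the group where they are high. For these a call of higher was partly fixed in advance, so the 6, 2 and 5 that were called, all higher, are given as a description. Of all genes, 33.8% and 33.5% were called higher after crush, 12.3% in Dicer iKO and 23.9% in Dgcr8 iKO. Shh, a secreted signal of repair SCs, was at 1.38 to 3.01 CPM in the 7 control nerves and at 466, 336, 360 and 306 CPM at 3 dpc. It was at 3.38 to 5.29 and 13.2 to 32.6 CPM in Dicer control and Dicer iKO, and at 3.31 to 4.49 and 34.8 to 39.6 CPM in Dgcr8 control and Dgcr8 iKO. The groups were far apart in each case, and the log2 fold changes were 7.48 ± 0.24 and 7.20 ± 0.17 after crush, 2.43 ± 0.36 (adjusted p = 0.00516) in Dicer iKO and 3.17 ± 0.17 (adjusted p = 7.35e-07) in Dgcr8 iKO. Gdnf, a growth factor for neurons, was at 0.942 to 3.42 CPM in control nerves and 74.7 to 138 CPM at 3 dpc. Its controls in the iKO experiment lay at 0 to 0.816 CPM, about the detection limit, and its mutants at 1.46 to 3.45 CPM in Dicer iKO and 6.13 to 11.8 CPM in Dgcr8 iKO.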

How the data were processed

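Total RNA of mouse SN was sequenced in 2 experiments. The crush libraries carry a SMARTer pico kit in their labels, while the study's methods name TruSeq with RiboZero, which was used for the iKO libraries. The authors removed 4 bases from the start of reads with Trimmomatic, aligned with STAR and estimated expected counts per transcript with RSEM on GRCm38. The deposited FPKM and TPM values are the authors' scalings of the same estimates to length and depth. Here the expected counts of a gene's transcripts were added up, rounded to whole numbers, filtered (filterByExpr, minimum count 10), scaled by TMM and tested with edgeR 4.0.16 (R 4.3.3), within the groups compared, with Benjamini-Hochberg adjustment at 0.05. The SE is the log2 fold change divided by the root of F. CPM values were scaled over all libraries of an experiment, so ratios of means differ slightly from fitted folds. The fits were tested on simulated data.

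FPKM was used for levels between genes in place of the planned TPM, because in the crush files 1 transcript of 109 nt held 61.4 to 71.8% of the TPM total. The methods give the replicates of a group as separate mice. By the methods, contralateral nerves were harvested from the crushed mice, so that group may share animals with the crushed group. Which nerves belong together is not given in the sources used here, and the main tests took all nerves as independent. Of 27 pairs of replicates compared, 0 were copies. One uncrushed library is replicate 3 by title and 4 by description. Members and gene lists were chosen with earlier results of these data known. The text names all 10 members, the genes of each other list with the largest rise and fall among those passing (up to 2 each per comparison), some marker and sex-linked genes, and the 3 genes closest by correlation to members whose log2 fold change reached 1 in size. Alternatives were other normalizations, filters, transcript sets, fits and DESeq2 1.42.0, and each library left out. Protein-coding transcripts alone, and the Dicer fit without libraries at 0 for Ddx3y, were chosen after seeing the data. miRNA and promoter sequences came from RefSeq (GRCm38.p6), and transcript positions and UTRs from GENCODE M21.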

Additional observations from a re-analysis of the deposited data

How the results depend on the processing

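Over all values of single genes under an alternative, 1818 kept direction and side of the threshold, 91 lost the call, 8 gained it and 48 turned; those of the members follow, and the cause was not tested. In crushed against uncrushed nerves, Kdm6a passed with no filter on counts (0.39) and with protein-coding transcripts. In crushed against contralateral nerves, Kdm6b passed with no filter (0.40), and Kdm6a, near 0, turned negative with 10 counts in every sample (-0.042), with protein-coding genes (-0.037) and with all groups in 1 fit (-0.00134). Without 1 library, its log2 fold change ran from -0.064 to 0.043 and 6 to 8 members were higher. In contralateral against uncrushed nerves the calls over all genes were 656 with no filter, 1 with protein-coding genes, 250 with DESeq2, 1 with all groups in 1 fit and 0 to 179 without 1 library. Directions there turned for members near 0. Hdac3 was 0.018 with RLE, 0.046 with no filter, 0.022 with DESeq2 and 0.0092 with all groups in 1 fit, Hdac1 was -0.00181 with 10 counts and -0.0061 with protein-coding genes, and with protein-coding transcripts Suz12 was -0.0040 and Kdm6a -0.031. Without 1 library, Ezh2 ran from -0.15 to 0.018, Suz12 from -0.056 to 0.10, Hdac1 from -0.022 to 0.065 and Hdac3 from -0.078 to 0.18.

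In Dicer iKO, 1 member was higher with all groups in 1 fit, 0 were lower with protein-coding transcripts (Kdm6a -0.057, Hdac3 -0.0097), and without the libraries at 0 for Ddx3y 0 were higher, 0 were lower and 449 genes were called (Kdm6a -0.15). Without 1 library, 1 to 2 members were higher, 0 to 1 lower and 841 to 3065 genes called, with Ezh2 from -0.021 to 0.14, Kdm6a from -0.14 to 0.34 and Hdac3 from -0.078 to 0.12. In Dgcr8 iKO, Kdm6b passed with no filter (adjusted p = 0.0371), and without 1 library 2 to 3 members were higher, with Suz12 from -0.10 to 0.072, Hdac1 from -0.020 to 0.17 and Hdac3 from -0.11 to 0.00114. For the difference between mutants, 2 genes of all were called, against 1 with RLE, 20 with no filter, 0 with 10 counts, 240 with DESeq2, 0 with protein-coding transcripts, 574 without the libraries at 0 for Ddx3y (Kdm6a 0.011, Kdm6b 0.15) and 0 to 401 without 1 library, the highest without Dicer control replicate 3. Eed then ran from -0.075 to 0.030, Kdm6b from -0.26 to 0.21 and Hdac3 from -0.16 to 0.030.

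No comparison had every pair of samples with the same replicate number deviating together at r over 0.1. For crushed and contralateral nerves, which may share animals in a pairing the labels do not give, r was -0.14 to 0.23 with 2 of 4 pairs over 0.1. With the number as a replicate block, 1 member was higher (Dnmt1) and 0 lower in Dicer iKO, where 929 genes were called and Ezh1 stood at -0.47 (adjusted p = 0.0813 by edgeR). The block gave 15 genes between contralateral and uncrushed nerves (Hdac3 0.020) and 0 for the difference between mutants, and changed no other member's call. No filter shifted the median of all genes by over 0.1, to -0.39 against uncrushed and -0.16 between the controls, as did all groups in 1 fit, to -0.20 against uncrushed. Counts for the gene lists moved as well: 2 to 9 of the PRC1 genes fell and 9 to 16 of the corepressor genes rose against uncrushed nerves. In Dicer iKO, 0 to 1 of the other PRC2 genes rose and 0 to 2 fell. There 0 to 3 of the PRC1 genes and 0 to 1 of the other deacetylases fell, and 0 to 1 of the corepressor genes rose.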
